A study of Rattus norvegicus with 6 samples.

Results

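The miRNAs rno-miR-221-3p and rno-miR-222-3p (below miR-221-3p and miR-222-3p), the guide strands of 2 neighbouring microRNA hairpins on the rat X chromosome, were measured in liver small RNA of rats with nonalcoholic fatty liver disease (NAFLD) and of normal rats. The members were the deposited tags, that is the distinct read sequences, whose first 18 bases equal those of either mature miRNA. They were 2 of the 365 miRNAs that had reads by this rule, and together they held 5254 and 504 reads in 104 and 43 different tags. Each library came from the liver of 1 male Wistar rat, with 3 rats in each group. The rats labelled NAFLD were fasted for 48 h and then given a diet with 80% starch for 7 days, and their livers were picked among those with higher hepatic triglycerides. The normal rats, labelled control, kept a standard diet with 35% starch, and their livers were picked at random. No transgene or drug was used, and the age is 4 months in the sample labels and 28 weeks in the methods. The contrast therefore holds the fast, the diet and the choice of fatty livers together.

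MiRNAs guide Argonaute proteins to messenger RNAs that pair with the seed, bases 2 to 8 of the mature strand, and lower their output. miR-221 and miR-222 come from neighbouring hairpins, share a seed and are known to repress cell cycle inhibitors such as Cdkn1b and Cdkn1c and the receptor Kit. They are best known from endothelial and vascular smooth muscle cells, and in liver from activated stellate cells and from hepatocellular carcinoma.

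The mature sequences from RefSeq (build GRCr8) are shown with the seed in capitals, since the shared seed is what joins them. No other rat miRNA in that table has the same bases 2 to 8. The first 8 bases are identical, and of the first 18 bases 9 are the same and 9 differ, so a read of 18 bases tells the members apart.
miR-221-3p (chrX:6023246-6023268, plus strand): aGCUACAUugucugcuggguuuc
miR-222-3p (chrX:6022682-6022702, plus strand): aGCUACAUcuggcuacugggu

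The hairpins are shown with both annotated mature strands in capitals, because the bases after the 3p strand decide below whether a longer read still matches the genome. They lie 458 bases apart, within the annotated spans of the long noncoding RNAs LOC120099382 and LOC120099384, whose strand is not given in the table used.
Mir222 (chrX:6022621-6022723, plus strand): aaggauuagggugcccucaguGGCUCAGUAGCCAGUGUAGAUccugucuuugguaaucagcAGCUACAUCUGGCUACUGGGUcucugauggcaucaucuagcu
Mir221 (chrX:6023182-6023290, plus strand): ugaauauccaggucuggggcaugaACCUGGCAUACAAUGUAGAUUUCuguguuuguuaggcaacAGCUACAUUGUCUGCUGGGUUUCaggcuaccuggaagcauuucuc

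The libraries held 11601058 to 11880695 clean reads. Of these, 76.9%, 75.7% and 79.2% began like a known mature miRNA in NAFLD replicates 1 to 3. In normal replicates 1 to 3 the share was 86.9%, 85.7% and 91.3%, so the groups did not overlap. Levels scaled by all clean reads carry this difference. miR-122-5p, the hepatocyte miRNA that defines liver, took 445063 to 595583 reads per 1000000 clean reads (TPM), more than any other miRNA, as in liver. The libraries also divided by substitutions in their reads, across the groups. Over the 50 most abundant tags, the median share of reads with a substitution at read position 4 reached 0.899% to 1.03% in NAFLD replicates 2 and 3 and in normal replicate 2. It was 0.0423% to 0.0459% in NAFLD replicate 1 and normal replicates 1 and 3. Results are therefore also given within these 2 sets of 3 libraries. In whole liver, fewer cells of a type and less of a miRNA per cell cannot be told apart.

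miR-221-3p was a miRNA of moderate level, rank 44 of the 365 by mean TPM. Its reads numbered 1003, 610 and 750 in NAFLD replicates 1 to 3, or 86.5, 51.9 and 63.5 TPM. In normal replicates 1 to 3 they numbered 1095, 641 and 1155, or 92.4, 54.0 and 97.2 TPM. The groups overlapped, and the low libraries were replicates 2 and 3 of NAFLD and replicate 2 of normal liver, those with many substitutions. The mean was 67.3 ± 17.6 TPM in NAFLD and 81.2 ± 23.7 TPM in normal liver (SD, n = 3 each). The log2 fold change of NAFLD over normal was -0.27 (standard error 0.44, 95% interval -1.22 to 0.68), and edgeR's quasi-likelihood test gave 0.986 after Benjamini-Hochberg adjustment. The standard error depended on the fit and was 0.18 with TMM factors and 0.22 with the library set below as a covariate, and neither fit called miR-221-3p.

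miR-222-3p was the rarer member, at rank 101. It had 96, 65 and 104 reads in NAFLD replicates 1 to 3, or 8.28, 5.53 and 8.80 TPM. In normal replicates 1 to 3 it had 78, 55 and 106 reads, or 6.58, 4.63 and 8.92 TPM. The groups overlapped here too, and the lowest library of each group was replicate 2. The mean was 7.54 ± 1.76 TPM in NAFLD and 6.71 ± 2.15 TPM in normal liver (SD, n = 3 each), with a log2 fold change of 0.17 (standard error 0.40, 95% interval -0.70 to 1.03, adjusted p 0.986, edgeR). Neither member was called. With library size equal to the reads that began like a known miRNA, the log2 fold changes were -0.08 for miR-221-3p and 0.36 for miR-222-3p. Neither was called there, and the median of all tested miRNAs moved from 0.02 to 0.20 with this scaling. Of the 167 miRNAs tested in the main fit, 1 was called, a background of 0.599%, and it was miR-122-5p, while 1.8% had an unadjusted p under 0.05. The exact Poisson intervals of the smallest counts, 47.8 to 56.2 TPM for miR-221-3p in NAFLD replicate 2 and 3.49 to 6.03 TPM for miR-222-3p in normal replicate 2, cover counting error only. For miR-221-3p the range over the libraries was far wider than such an interval, whereas for miR-222-3p those of most pairs of libraries overlapped.

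**Figure D1:**
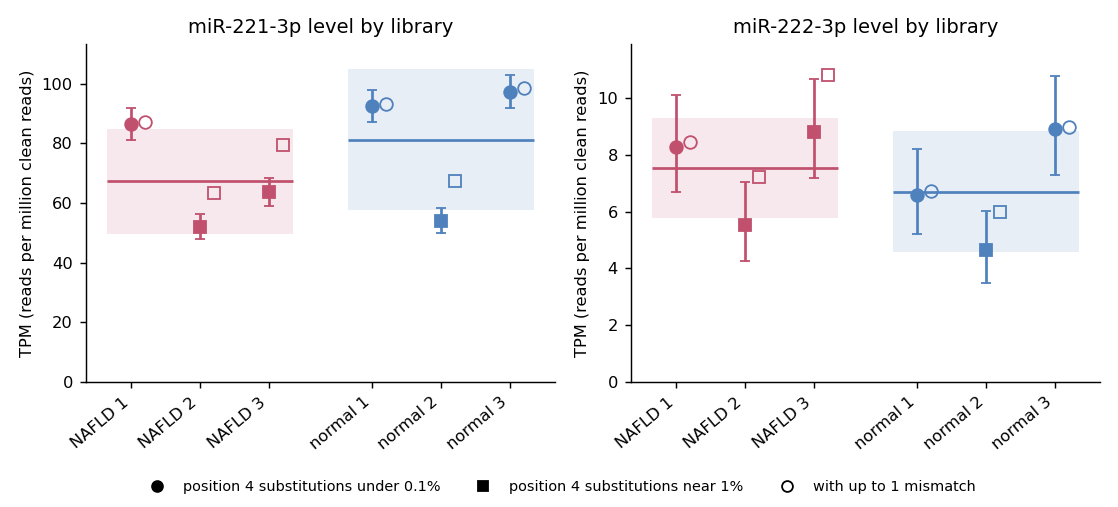
Level of miR-221-3p (left) and miR-222-3p (right) in TPM in each library, with filled symbols for exact matches of the first 18 bases, bars for the 95% Poisson interval, and lines and bands (red for NAFLD, blue for normal) for the group mean and SD (n = 3). Open symbols add reads with 1 mismatch, and squares are the libraries with many substitutions, which hold the 3 lowest exact values of miR-221-3p, 51.9 to 63.5 TPM.

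The levels of miR-221-3p did not overlap between the library sets, as was so for 71 of the 167 tested miRNAs (42.5%), all lower in the libraries with many substitutions. The split was thus common and not particular to miR-221-3p. Among the 3 libraries with few substitutions, it had 86.5 to 97.2 TPM, and among the other 3 it had 51.9 to 63.5 TPM. Within the former, NAFLD replicate 1 differed from the mean of the normal replicates by -0.13 on the log2 TPM scale. Within the latter, NAFLD replicates 2 and 3 differed from normal replicate 2 by 0.09. With the set as a covariate in edgeR, the log2 fold change was -0.02 (adjusted p 0.971). For miR-222-3p the within-set differences were 0.11 and 0.59, and the covariate gave a log2 fold change of 0.35 (adjusted p 0.710). The median of all tested miRNAs with the covariate was 0.24.

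The reads of the members also differed between the sets in sequence. Positions below are counted from 1 at the 5′ end of the mature strand, with the reference base first. The substitution A5C, which falls in the seed, was carried by 98 and 128 reads like miR-221-3p in replicates 2 and 3 of NAFLD and by 128 in normal replicate 2. These were 13.2%, 13.7% and 16.02% of the reads that had at most 1 mismatch in the first 18 bases. The other libraries had 0 such reads, where 3 reads would have been 0.257% to 0.296%. For miR-222-3p, A5C was found in 11, 15 and 9 reads of those same libraries (12.9%, 11.7% and 12.7%) and in 0 reads of the others, which allows up to 2.80% to 3.75%. miR-221-3p also showed A1C in 27, 42 and 19 reads, and miR-222-3p showed A15C in 5, 6 and 4 reads, again in NAFLD replicates 2 and 3 and in normal replicate 2 and in no read of the rest. Every substitution with at least 10 reads in these members was thus a change of A to C. The most abundant A5C tag of each member is shown, with the substituted base in capitals, because the exact rule leaves it out although the remaining bases match.
miR-221-3p with A5C (35, 39 and 41 reads in NAFLD replicates 2 and 3 and in normal replicate 2): agctCcattgtctgctgggttt
miR-222-3p with A5C (5, 3 and 1 reads in those libraries): agctCcatctggctactgggtct

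**Figure D2:**
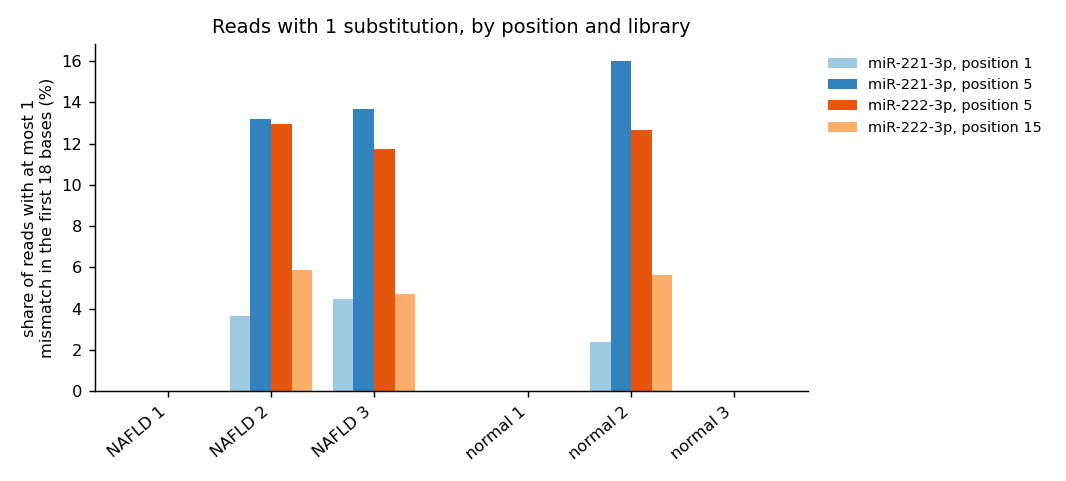
Share of reads with 1 substitution at the named position (percent of the reads with at most 1 mismatch in the first 18 bases) in each library. All 4 kinds appear in NAFLD replicates 2 and 3 and in normal replicate 2, with position 5 at 11.7% to 16.02%, and none appears in the other libraries.

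Counting reads with up to 1 mismatch raised miR-221-3p to 63.2 and 79.3 TPM in NAFLD replicates 2 and 3 and to 67.3 TPM in normal replicate 2. The other libraries then had 87.2, 93.3 and 98.4 TPM, so the sets stayed apart but less so. The means were 76.6 ± 12.3 TPM in NAFLD and 86.3 ± 16.7 TPM in normal liver (SD, n = 3 each), and the log2 fold change was -0.17 (adjusted p 0.938, edgeR). For miR-222-3p the same count gave 8.84 ± 1.83 TPM and 7.25 ± 1.57 TPM (SD, n = 3 each) and a log2 fold change of 0.29 (adjusted p 0.872, edgeR).

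The balance of the members within a library needs no library size. miR-221-3p had more reads than miR-222-3p in all 6 libraries. The ratio of their reads was 10.4, 9.38 and 7.21 in NAFLD replicates 1 to 3 and 14.0, 11.7 and 10.9 in normal replicates 1 to 3. Each NAFLD library lay below each normal library, with a narrow gap between NAFLD replicate 1 and normal replicate 3. The mean log2 ratio was 3.16 ± 0.28 in NAFLD and 3.60 ± 0.19 in normal liver (SD, n = 3 each), a difference of -0.44. The two-sided exact permutation p was 0.1, the smallest that 3 libraries against 3 allow, and 0.2 after Benjamini-Hochberg adjustment over the 2 ratios compared. The difference therefore did not pass a threshold of 0.05, nor could it have. The groups did not overlap for 12.1% of the 10011 pairs of miRNAs with at least 10 reads in every library, so such a separation was not rare among pairs. The interval of a library was wide beside the gap, from 8.48 to 12.9 in NAFLD replicate 1 and from 8.93 to 13.3 in normal replicate 3 (Wilson, 95%).

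Since each NAFLD ratio lay below each normal ratio, the difference had to be negative in both sets and without any library. Only its size can vary. With few substitutions the difference of log2 ratios was -0.24, and with many it was -0.50. With up to 1 mismatch it was -0.45, and the groups again did not overlap. Without NAFLD replicate 3, the library with the lowest ratio, the difference shrank to -0.29.

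**Figure D3:**
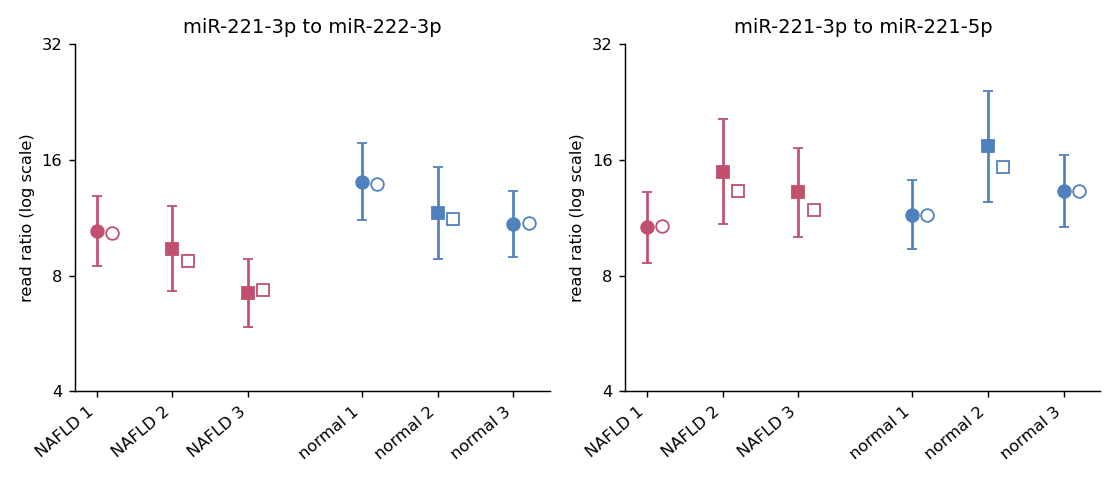
Ratio of reads of miR-221-3p to miR-222-3p (left) and to miR-221-5p (right) in each library on a log axis (red for NAFLD, blue for normal), with 95% Wilson intervals as bars. Open symbols beside the filled ones use up to 1 mismatch, and squares are the libraries with many substitutions. The left ratio was at most 10.4 in NAFLD and at least 10.9 in normal liver.

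The opposite strands were much rarer than the guides. miR-221-5p, the passenger strand of the Mir221 hairpin, had 94, 41 and 57 reads in NAFLD replicates 1 to 3 and 95, 37 and 87 in normal replicates 1 to 3. Its low libraries were again those with many substitutions, and the groups overlapped. Its level was 5.47 ± 2.37 TPM in NAFLD and 6.15 ± 2.65 TPM in normal liver (SD, n = 3 each), with a log2 fold change of -0.17 (standard error 0.46, adjusted p 0.986, edgeR). The ratio of miR-221-3p to miR-221-5p was 10.7, 14.9 and 13.2 in NAFLD and 11.5, 17.3 and 13.3 in normal liver. The log2 ratios differed by -0.11, and the groups overlapped (exact permutation p = 0.6). miR-222-5p had 0 reads in every library, where 3 reads would be 0.253 to 0.259 TPM. miR-222-3p was thus at least 18.3-fold to 35.3-fold above miR-222-5p, each library taken against 3 reads. A wider search for mature bases 4 to 18 anywhere in a tag found 1 read of miR-222-5p, in normal replicate 3.

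The 3′ ends of the members varied over several bases, while the 5′ end was fixed by the rule. The tags below are the 6 of each member with most reads, printed as sequenced, with 3′ bases that do not match the hairpin in capitals. They show that miR-221-3p mostly ended at or 1 base short of its annotated end, whereas miR-222-3p mostly ran past it.
miR-221-3p, 22 bases, 1638 reads: agctacattgtctgctgggttt
miR-221-3p, 23 bases as annotated, 1396 reads: agctacattgtctgctgggtttc
miR-221-3p, 1 added base, 842 reads: agctacattgtctgctgggtttT
miR-221-3p, 1 added base, 237 reads: agctacattgtctgctgggtttA
miR-221-3p, 1 added base, 208 reads: agctacattgtctgctgggtttcT
miR-221-3p, 2 added bases, 176 reads: agctacattgtctgctgggtttTT
miR-222-3p, 24 bases, 144 reads: agctacatctggctactgggtctc
miR-222-3p, 23 bases, 121 reads: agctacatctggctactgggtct
miR-222-3p, 1 added base, 44 reads: agctacatctggctactgggtctT
miR-222-3p, 25 bases, 38 reads: agctacatctggctactgggtctct
miR-222-3p, 2 added bases, 28 reads: agctacatctggctactgggtctTT
miR-222-3p, 21 bases as annotated, 22 reads: agctacatctggctactgggt

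For miR-221-3p, 26.6% of all reads ended where RefSeq places the mature end, and 1.20% matched the hairpin past it. For miR-222-3p, 4.37% ended at the annotated end and 61.9% matched the hairpin past it. A count of the annotated miR-222-3p sequence alone would have kept 5, 2 and 0 reads from NAFLD liver and 1, 2 and 12 from normal liver.

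The forms of miR-221-3p were steady from rat to rat. The form of 22 bases took 29.2%, 33.1% and 34.1% of its reads in NAFLD replicates 1 to 3 and 30.5%, 31.4% and 30.5% in normal replicates 1 to 3. The annotated form of 23 bases took 24.9%, 27.9% and 27.3% against 26.1%, 24.8% and 28.2%. Within each of these forms the groups overlapped.

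Single uracils were the most common bases added beyond the hairpin match. An added base equal to the next hairpin base counts as a match, so shares of added bases are lower bounds. The next base is uracil after the 22-base and 24-base forms of miR-222-3p and also after the 21-base form of miR-221-3p. It is adenine after the 23-base form of miR-221-3p. In miR-221-3p single added uracils took 21.4%, 18.9% and 16.1% of the reads in NAFLD and 22.3%, 21.5% and 20.1% in normal liver. In miR-222-3p they took 10.4%, 6.15% and 7.69% in NAFLD and 10.3%, 10.9% and 13.2% in normal liver. The means were lower in NAFLD for both, 18.8 ± 2.65% against 21.3 ± 1.12% and 8.09 ± 2.16% against 11.5 ± 1.55% (SD, n = 3 each), but NAFLD replicate 1 lay among the normal libraries each time. The exact permutation p was 0.2 for both, and 0.914 after adjustment over the 16 forms with a mean share of at least 1%.

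Single adenines took 5.42 ± 0.51% of miR-221-3p reads in NAFLD and 5.78 ± 0.472% in normal liver (SD, n = 3 each). For miR-222-3p they took 4.72 ± 1.25% and 4.81 ± 1.05% (SD, n = 3 each). Adenine and uracil made up 98.7% of the single added bases in either member. Among reads with 2 or more unmatched bases, 90.8% for miR-221-3p and 92.1% for miR-222-3p carried only these bases. Uridylation and adenylation of mature miRNAs by terminal nucleotidyl transferases are known modifications.

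All forms together gave no separation of the groups. Reads that matched the hairpin to their last base were 61.6 ± 3.87% of miR-221-3p in NAFLD and 60.2 ± 1.65% in normal liver (SD, n = 3 each, exact permutation p = 0.7). For miR-222-3p they were 69.9 ± 6.33% and 65.3 ± 5.98% (SD, n = 3 each, exact permutation p = 0.4). The difference between the groups changed direction between the library sets for both members, from -3.68 to 4.80 and from -3.39 to 12.6 percentage points with few and with many substitutions. The mean read length was 22.9 ± 0.0644 bases against 22.8 ± 0.0266 for miR-221-3p (exact permutation p = 0.4, n = 3 each) and 23.8 ± 0.149 against 23.7 ± 0.359 for miR-222-3p (exact permutation p = 0.7, n = 3 each, SD throughout). Of the 16 forms, 0 had groups that did not overlap. Of the single tags with at least 1% of a member's reads, 1 of 13 for miR-222-3p and 0 of 9 for miR-221-3p did not overlap, and that tag had 7 reads in all.

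**Figure D4:**
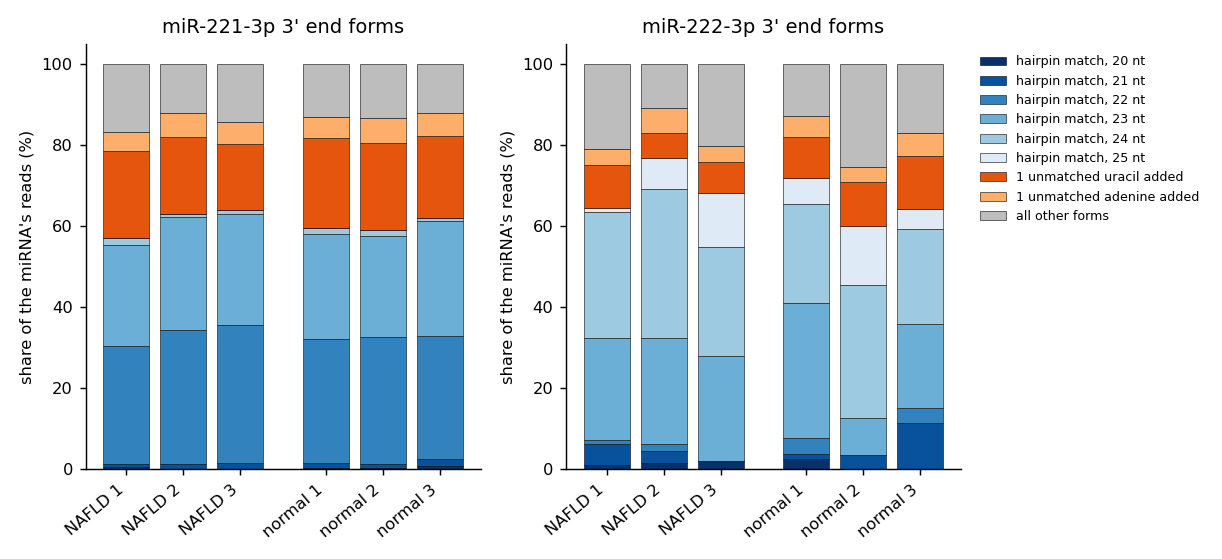
Share of each 3′ end form among the reads of miR-221-3p (left) and miR-222-3p (right) in each library, in percent. Blue bars match the hairpin to the last base, orange bars carry 1 unmatched base, and the remaining forms are grey. miR-221-3p was mostly 22 or 23 bases long and miR-222-3p mostly 23 or 24, with no form separating the groups.

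Markers of the cell types in liver were set beside the members, as lists of miRNAs known to be enriched in each. Of the hepatocyte list 1 of 4 tested markers was called, which was miR-122-5p with a log2 fold change of -0.35 (standard error 0.04, adjusted p 0.000532, edgeR). That call was lost with TMM factors, with limma and with library size equal to the matched miRNA reads, and DESeq2 called miR-1b instead. The list's median log2 fold change was -0.19, but 0.22 with the library set as a covariate. Its summed level, nearly all of it miR-122-5p, was 474195 to 481459 TPM in NAFLD and 582999 to 621798 TPM in normal liver. Over all 167 tested miRNAs the median was 0.02, and 0.24 with that covariate. None of the remaining lists had a called member.

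Endothelial miRNAs, where the cluster is well known, summed to 23.5 to 48.4 TPM in NAFLD and 14.7 to 41.1 TPM in normal liver, with 0 of 2 called and a median log2 fold change of -0.01, or 0.34 with the covariate. Stellate or fibroblast miRNAs summed to 404 to 446 TPM in NAFLD and 213 to 390 TPM in normal liver without overlap, with 0 of 3 called and a median of 0.40, or 0.69 with the covariate. Nearly all of that sum was miR-199a-3p. Smooth muscle miRNAs summed to 128 to 219 TPM and 129 to 277 TPM, with 0 of 2 called and a median of -0.72, or -0.29 with the covariate. Of the 2, miR-143-3p was at -0.14 and miR-145-5p at -1.29. The latter rested on normal replicate 1, with 84.6 TPM of miR-145-5p, which also held the sum of 277 TPM. Normal replicates 2 and 3 had 11.4 and 13.2 TPM of miR-145-5p, and NAFLD replicates 1 to 3 had 15.9, 6.89 and 21.8 TPM. The part of these cell types in the levels of the members was not tested.

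Blood and immune miRNAs summed to 31.2 to 78.0 TPM in NAFLD and 35.04 to 55.8 TPM in normal liver, with 0 of 4 called and a median of 0.34, or 0.66 with the covariate. Of the 5 bile duct markers only miR-200c-3p and miR-141-3p could be counted. They summed to 0.765 to 2.03 TPM in NAFLD and 1.77 to 2.95 TPM in normal liver. Of these, 0 of 1 tested marker was called, with a log2 fold change of -0.79, or -0.63 with the covariate. miR-150-5p, miR-200a-3p, miR-200b-3p and miR-429 had no entry in the RefSeq mature sequences used, so they were not counted. For comparison, the groups did not overlap in TPM for 4.19% of the 167 tested miRNAs, and the members were not among them.

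**Figure D5:**
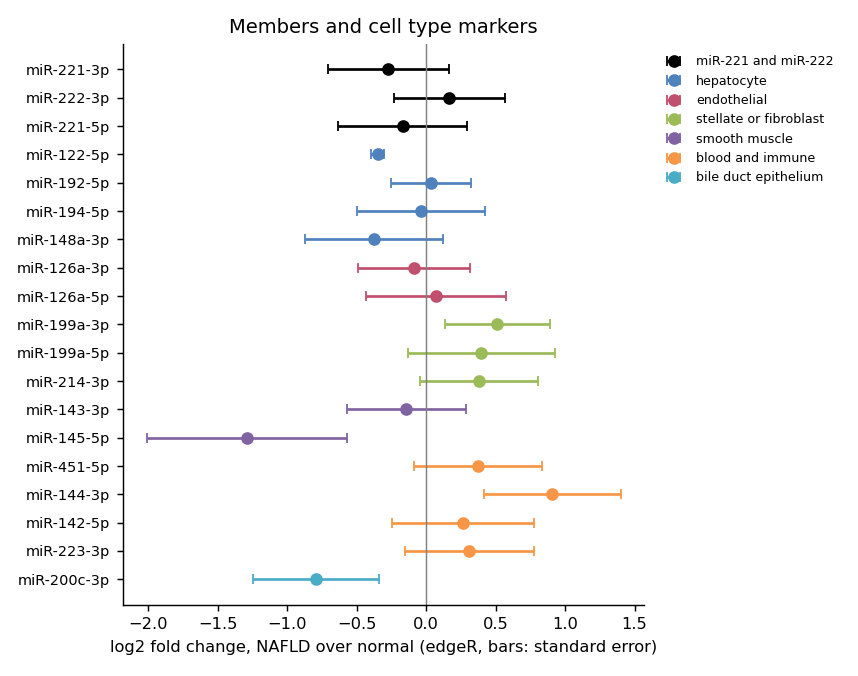
Log2 fold change of NAFLD over normal (edgeR, points) with its standard error (bars) for the members, miR-221-5p and the tested cell type markers, colored by list. miR-122-5p at -0.35 is the sole called miRNA in this fit, and the bars of miR-221-3p, miR-222-3p and miR-221-5p cross 0.

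The miRNAs most like each member were found by the root mean square distance of log2 TPM profiles over the 6 libraries, each centred on its own mean, among 142 miRNAs with at least 10 reads in every library. Nearest to miR-221-3p were miR-101a-3p (0.0973), miR-143-3p (0.102), miR-30c-2-3p (0.109), miR-340-5p (0.116) and miR-99b-5p (0.122). miR-101a-3p, for example, had 420, 252 and 341 TPM in NAFLD and 427, 257 and 417 TPM in normal liver, low in the libraries where miR-221-3p was low. Nearest to miR-222-3p were miR-181b-5p (0.164), miR-181d-5p (0.164), miR-362-3p (0.169), miR-532-5p (0.174) and the shared prefix of miR-103-3p and miR-107-3p (0.177). The members lay at a distance of 0.294 from each other, farther than the nearest miRNAs listed but below the median distance. Counting error at the 55 to 106 reads of miR-222-3p also enters this distance. miR-222-3p was number 49 in the order for miR-221-3p, and miR-221-3p was number 44 in that for miR-222-3p. The median distance of all miRNAs was 0.351 and 0.380. These distances describe 6 libraries that share the division by substitutions.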

How the data were processed

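Small RNA of 18 nt or more from 6 livers was sequenced by the authors, who cleaned out reads of poor quality, with 5′ primer, lacking the 3′ primer or an insert, or of poly A. They deposited raw counts of reads per tag, not normalized and not filtered for a genome match, and a log of counts per step. The submitters' processing notes name rn5 (Rnor_5.0). The cleaning software is not given in the sources used here. Lost or substituted reads lower exact matches.

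Tags were summed by the first 18 bases of RefSeq mature miRNAs (693 names, of which 7 under 18 bases were not matched), giving 675 prefixes, 12 of them shared by several names. TPM was the count divided by total clean reads, times 1000000. edgeR 4.0.16 in R 4.3.3 (glmQLFit, filterByExpr, library size equal to clean reads, Benjamini-Hochberg, threshold 0.05) compared the groups, and its standard error is the absolute log2 fold change over the square root of F. Alternatives were limma 3.58.1, fitted to log2(TPM + 1), and DESeq2 1.42.0. Ratios and shares used two-sided exact permutation tests (scipy 1.17.1). The fit was tested on simulated data, which did not hold the division of the libraries by substitutions. P-values set group differences against the spread between libraries of separate rats, a spread that, without the set covariate, includes the substitution sets.

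Named miRNAs were the members, their 5p strands, cell type markers, the 5 nearest profiles and tags of at least 1%. miR-122-5p and miR-1b were also named because they were called. Members and lists were chosen with earlier results of these data known.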

Additional observations from a re-analysis of the deposited data

How the results depend on the processing

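Neither member was called under any alternative run, which were other scalings, tools, filters, matching rules, covariates and the omission of each library. By setting, miR-221-3p stayed below 0, from -0.49 (without NAFLD replicate 1 or normal replicate 2) to -0.02 (set covariate), and without each library from -0.49 to -0.12. The last value arose without NAFLD replicate 2 or normal replicate 3. The median of all tested miRNAs moved from 0.02 to 0.20 with library size equal to the matched miRNA reads and to 0.24 with the set covariate. Relative to that median, miR-221-3p was -0.29, -0.28 and -0.26 in the main fit and these settings, in that order. On the same scale miR-222-3p was 0.15, 0.15 and 0.12, and miR-221-5p was -0.19, -0.18 and -0.0018. miR-222-3p without each library ranged from -0.0407 (without normal replicate 2, its sole change of direction) to 0.43. miR-221-5p changed direction with library size of matched miRNA reads (0.0234) and with the set covariate (0.23), and without each library ranged from -0.56 to 0.0711.

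The count of called miRNAs was 1 (miR-122-5p), and 0 with TMM factors, limma or library size of matched miRNA reads (unadjusted p under 0.05: 3, then 12, 2 and 6). Without each library it was 1 to 2. DESeq2 called miR-1b in place of miR-122-5p.

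Differences of log2 ratio to miR-222-3p ran from -0.56 to -0.29 without each library and to miR-221-5p from -0.25 to 0.0474. For reads matching the hairpin these ranges were 0.00643 to 3.58 (miR-221-3p) and 1.11 to 7.85 points (miR-222-3p), for 1 added uracil -3.81 to -1.16 and -4.53 to -2.40, for 1 added adenine -0.60 to -0.10 and -0.80 to 0.35, and for length 0.0058 to 0.062 and -0.0454 to 0.28 bases. With few substitutions, hairpin match gave -3.68 and -3.39, uracil 0.25 (miR-221-3p) and -1.32 (miR-222-3p), and length of miR-221-3p 0.13. With many, hairpin match gave 4.80 and 12.6, length -0.0202 and -0.30, and adenine of miR-222-3p 1.36. With 1 mismatch, adenine gave 0.0511 and 0.41, and with tags of at least 10 reads 1.72 for miR-222-3p. The cause of these changes was not tested.

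With the replicate number as a block, log2 fold changes were -0.26 (miR-221-3p), 0.19 (miR-222-3p) and -0.15 (miR-221-5p), and 1 miRNA was called. Paired ratios differed by -0.44 (smallest p possible 0.25). Deviations of same-numbered libraries correlated at 0.08, 0.28 and -0.50 over 142 miRNAs. Libraries of other numbers ranged from -0.42 to 0.40. The libraries also divide by substitutions, so these correlations cannot decide whether the numbers pair the rats. No log2 fold change came from the annotated miR-222-3p sequence alone, which was too rare for the edgeR fit and has 0 reads in NAFLD replicate 3. Its share of the miR-222-3p reads was among the forms compared. Of the members, depth limits miR-222-3p most, at 55 to 106 reads, and miR-221-5p had 37 to 95.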
